A study of Rattus norvegicus with 2 samples.

Results

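The enzymes described here are the 10 that make, oxidise and break down sulfide and cysteine in mammalian cells: Sqor, Ethe1, Tst, Suox, Mpst, Cth, Cbs, Cdo1, Csad and Got1. They were chosen by gene name among the array's non-control probes (Sqor under its older name Sqrdl), 10 of the 27234 named genes with a probe, and were read by 11 probes. The study asked which transcripts differ when cultured IEC6 cells (an epithelial line derived from the small intestine of a rat) are exposed to sodium trisulfide (Na2S3), an inorganic polysulfide that carries sulfane sulfur. The control group received water for 60 min and the other group received Na2S3 for 60 min, both in DMEM with 0.1% FCS, after growth in DMEM with 10% FCS. The sample label gives the Na2S3 dose as 100 µM and the treatment protocol as 100 mM, and the labels do not settle which is right. Each group is 1 RNA sample from dish culture on 1 Agilent single-colour array, so the differences have no replicate to check them against and carry no p-value.

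In mitochondria, Sqor oxidises sulfide to a persulfide and passes the electrons to coenzyme Q. Ethe1 then oxidises the persulfide to sulfite, Tst moves sulfane sulfur between sulfite and glutathione persulfide by way of thiosulfate, and Suox oxidises sulfite to sulfate. Sulfide and persulfides are formed from cysteine and homocysteine by Cbs and Cth, and from mercaptopyruvate by Mpst. Cysteine is also broken down through cysteine sulfinate, which Cdo1 makes and Csad decarboxylates towards taurine, and through transamination, one of the reactions of Got1. In the gut, epithelial cells meet sulfide made by bacteria, and the colonic epithelium is known for high sulfide oxidation.

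Of the 10 enzymes, 6 were well above background on both arrays, namely Sqor, Ethe1, Tst, Suox, Mpst and Got1. Well above background is the flag that the scanner software gives a spot. Over all 27234 named genes the same was true of 48.0%. Got1 was lower in the Na2S3 array by 2.64-fold, and the other 5 measured enzymes had log2 ratios between -0.33 and 0.06. The Csad spot had that flag with Na2S3 but not with water, and the spots of Cth, Cbs and Cdo1 had it on neither array. The ratio is always that of the Na2S3 array over the control array, after each array was scaled to the 75th percentile of its own non-control probes.

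The 60-base probes of 5 measured enzymes are shown in lower case, because each enzyme's value rests on 1 spot of such a probe and the sequence is the stretch of mRNA that was read.
Sqor: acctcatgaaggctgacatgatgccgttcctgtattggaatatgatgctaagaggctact
Ethe1: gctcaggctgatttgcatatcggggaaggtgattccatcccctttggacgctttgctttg
Tst: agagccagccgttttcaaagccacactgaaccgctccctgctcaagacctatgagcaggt
Mpst: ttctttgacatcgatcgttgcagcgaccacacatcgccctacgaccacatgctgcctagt
Got1: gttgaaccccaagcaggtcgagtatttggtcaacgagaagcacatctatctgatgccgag

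For each of the 11 member probes, 0 other probes on the array held a run of 20 or more of its bases, so no other probe reads the same stretch a second time. Tst and Mpst are related sulfurtransferases whose probes lay 4219 bases apart on rat chromosome 7 and were listed in opposite directions, at chr7:116355388-116355447 and chr7:116359667-116359726 in the rn4 coordinates of the files. Binding of a probe to the transcript of a related gene, such as Mpst for Tst or Got2 for Got1, was not tested. The probes of Sqor (chr3:109750855-109752060), Ethe1 (chr1:79876758-79887826) and Got1 (chr1:247344588-247346796) covered 1206, 11069 and 2209 genomic bases with 60 bases of probe, so each spans an intron. The Suox probe lay at chr7:1973741-1973800. Which exon each probe falls in was not analysed here.

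Among the sulfide-oxidising enzymes, Sqor, the entry enzyme of the pathway, had a processed signal of 2171 intensity units in the control array and 2340 in the Na2S3 array. Unscaled, the Na2S3 value was the higher by a factor of 1.08, and after scaling the log2 ratio was -0.10 (0.933-fold). These arrays therefore gave Sqor nearly the same level with water and with Na2S3. A second Sqor probe, annotated to the mRNA called Cc2-17 (a synonym of Sqor in the RefSeq table), read 4.26 and 4.47, without the flag on either array. It lay at bases 1172064 to 1172659 of the unplaced chromosome 3 sequence in rn4. The Sqor value thus rests on the brighter probe alone.

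Ethe1, the persulfide dioxygenase whose loss in humans causes ethylmalonic encephalopathy, had 901 in the control array and 1084 in the Na2S3 array. The log2 ratio was 0.06 (1.04-fold), the only positive one among the 6 measured enzymes. Tst, the rhodanese, had 80.3 and 83.9, with a log2 ratio of -0.14. Its signals were 4.38 and 4.09 times the lowest signal that carried the flag on the same array, so it was measured close to background. Suox, which needs a molybdenum cofactor, had 792 and 729. Its log2 ratio of -0.33 (0.797-fold) was the lowest of the sulfide-oxidising enzymes, and 80.1% of all measured genes had a smaller ratio in absolute size.

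**Figure D1:**
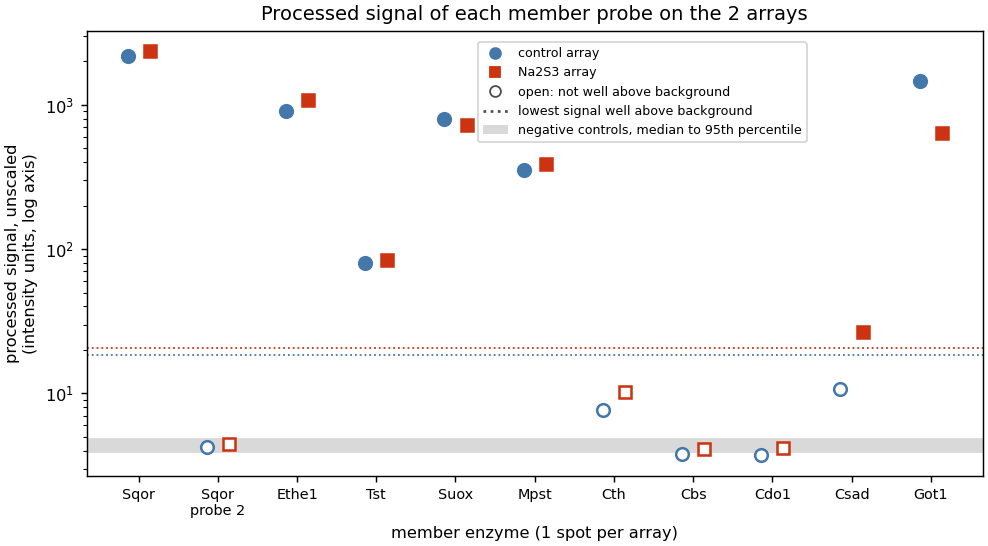
Processed signal (intensity units, unscaled, log axis) of the 11 member probes on the control array (blue circles) and the Na2S3 array (red squares), each point being 1 spot. Filled points were well above background, dotted lines are the lowest such signal on each array, and the grey band runs from the lower median to the higher 95th percentile of the negative control spots; Got1 has the widest gap between filled points, and Cbs and Cdo1 lie at the negative controls.

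Enzymes that form sulfide and persulfides were split by detection. Mpst, which takes sulfur from mercaptopyruvate to make a protein persulfide, had 352 in the control array and 388 in the Na2S3 array, a log2 ratio of -0.07 (0.956-fold). Its value, like that of Sqor, was a little higher in the Na2S3 array before scaling and a little lower after it. Cbs, which condenses serine or cysteine with homocysteine, read 3.81 and 4.15. The 308 negative control spots had medians of 3.94 and 4.38 on the same arrays, so the Cbs probe was at the level of spots with no rat target. An array probe for a pseudo-Cbs transcript, named only by its identifier, read 4.0 and 4.46 and lacked the flag as well. Cth, the cystathionine gamma-lyase, read 7.63 and 10.2, above the 95th percentile of the negative controls (4.49 and 4.83) and below their 99th (14.9 and 14.6). With both arrays unflagged, no fold is given for Cth or for Cbs.

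In cysteine catabolism, Got1 alone was measured on both arrays. Got1 is the cytosolic aspartate aminotransferase, which moves amino groups between aspartate and glutamate and can also use cysteine and cysteine sulfinate. Its signal was 1453 in the control array and 636 in the Na2S3 array, both far above background (79.2 and 31.0 times the lowest signal well above it). The log2 ratio was -1.40, which leaves 37.9% of the control level. Before any scaling the Na2S3 signal was already 0.438 times the control signal. The spot's mean brightness was 1542 over a local background of 68.0 in the control array and 703 over 64.0 in the Na2S3 array. The spot itself was dimmer, and its surround was nearly the same.

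Got1 was the single member past 2-fold, with 1 of 6 at least 2-fold lower, against 0.62% of the 13062 genes measured on both arrays. No member (0 of 6) was at least 2-fold higher, against 0.942% of those genes. These background counts, 81 lower and 123 higher genes, were 31 and 61 with normexp background correction, run with an offset of 50 intensity units added to each signal. Got1 had the 29th lowest ratio of the 13062 genes, and 99.3% of them had a smaller ratio in absolute size. Of the 6 measured enzymes 5 had a ratio below 0, against 56.6% of measured genes, and the median was -0.12, or -0.10 without Got1, beside a median of -0.04 over all measured genes. Apart from Got1 the enzymes thus lay close to the bulk of the array.

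**Figure D2:**
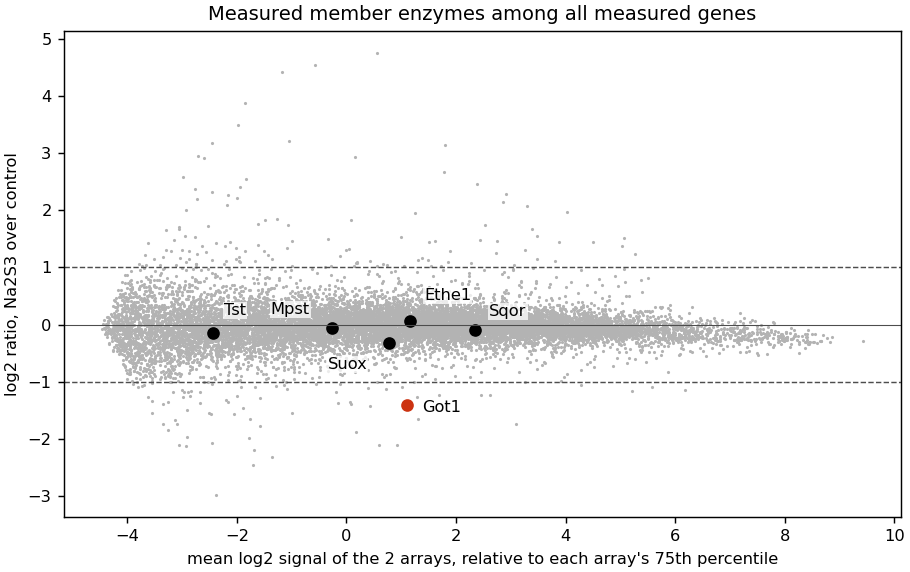
Log2 ratio (Na2S3 over control) against the mean log2 signal of both arrays relative to each array's 75th percentile, with a grey point for each of 13062 measured genes and a labelled point for each of the 6 measured enzymes. Dashed lines mark 2-fold; Got1, at -1.40, lies below the lower line and the other 5 enzymes lie within the body of the cloud.

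The precision of a single spot pair was read from probes spotted repeatedly on the same arrays, since all 6 enzymes had 1 spot per array. At the signal of Got1, 784 spot pairs of 81 repeated probes gave an SD of 0.08 for 1 log2 ratio and a largest deviation of 0.46 from the mean of its probe. The Got1 ratio was 18.3 times that SD. The SD was also 0.08 for Sqor, Ethe1 and Suox, 0.10 for Mpst and 0.20 for Tst. At the brighter signal of Sqor, 1263 spot pairs of 132 repeated probes had a largest deviation of 1.01. The ratios of Ethe1, Tst and Mpst were smaller than this error, that of Sqor was 1.18 times it and that of Suox 4.19 times it. Among 717 spot pairs at the signal of Suox the largest deviation was 0.46, a single extreme value that exceeds the size of the Suox ratio. The 7 spike-in control probes above background, spotted many times each, had mean log2 ratios from -0.12 (reading 11050 and 11730) to 0.11 (reading 145.9 and 180.6). The probe nearest Tst in signal, reading 76.4 and 90.4, had 0.06. The spot error is taken about each probe's own mean and leaves out such shifts of a whole probe. The mean was -0.04 for the probe reading 386 and 441 and -0.04 for the one reading 2778 and 3153. Single spot pairs of the former ran from -0.37 to 0.25 and those of the latter from -0.21 to 0.12. This error covers the spots of these arrays and leaves out the spread between cultures, which was not measured.

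**Figure D3:**
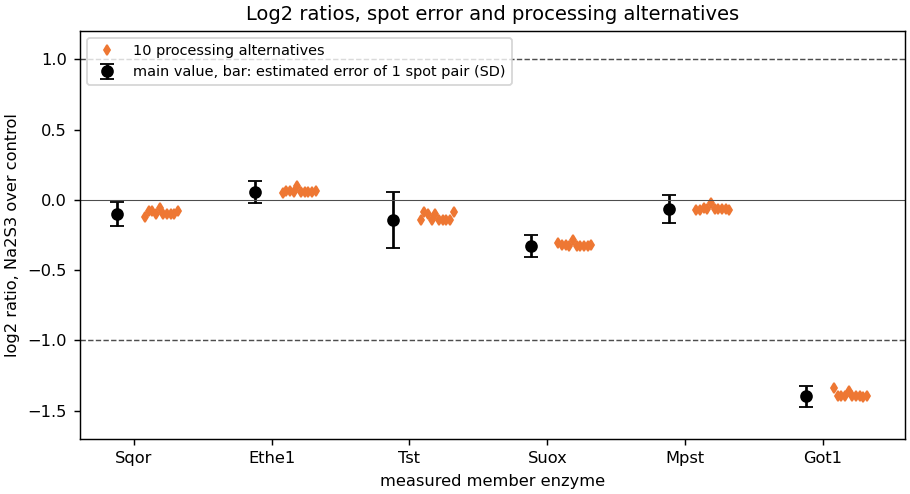
Log2 ratio (Na2S3 over control) of each measured enzyme: black points are the reported values with the estimated error of 1 spot pair (SD) as bars, and orange diamonds are the same ratio under 10 other ways of processing, several of which cannot move a gene read by 1 spot. Got1 stays between -1.40 and -1.34, and Suox between -0.33 and -0.29.

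Csad, which decarboxylates cysteine sulfinate to hypotaurine, read 10.8 in the control array and 26.5 in the Na2S3 array, and only the latter spot was flagged as well above background. Against the lowest control signal well above background (18.3), the scaled Na2S3 value was higher by 1.25-fold. This is not a firm lower bound. In the Na2S3 array an unflagged Papss2 spot read 23.1, above that array's lowest flagged signal (20.5). With normexp background correction and its offset of 50, larger than either Csad signal, the same calculation gave a log2 value of -0.02. A spike-in probe of similar brightness, with medians of 13.0 and 17.0, showed how such dim spots behave: 5 of its 35 spot pairs were flagged with Na2S3 and not with water, and the log2 ratios of all 35 ran from -1.25 to 1.61. The Csad difference lies within that range. Cdo1, the dioxygenase that commits cysteine to cysteine sulfinate, read 3.72 and 4.16, at the level of the negative controls. The taurine branch therefore had no enzyme among Cdo1 and Csad that was well above background on both arrays.

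The surrounding pathways were described by 7 gene lists holding 51 genes, of which 39 were measured on both arrays. Of these, 1 passed 2-fold upward and 0 passed it downward, and the median log2 ratio was -0.05, near the -0.04 of all measured genes. The higher gene was Cars1, the cytosolic cysteinyl-tRNA synthetase, with 688 in the control array and 1750 in the Na2S3 array (log2 ratio 1.14). Its list, sulfurtransferases and persulfide makers, had a median of -0.01 over 11 measured genes. Among them were the mitochondrial cysteinyl-tRNA synthetase Cars2 at -0.35 and Nfs1, the cysteine desulfurase, at 0.02. Tstd3, also in this list, is outside these counts because its probes are named only by an identifier. Those probes were well above background on both arrays, with log2 ratios of -0.24 and -0.26.

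Enzymes and carriers that work with Got1 had ratios near 0. In the malate-aspartate shuttle, which carries reducing equivalents into mitochondria, 5 of 6 genes were measured, 0 passed 2-fold in either direction and the median was -0.08. Got2 read 1837 and 2215, a log2 ratio of 0.06, and the aspartate-glutamate carrier gene Slc25a13 had the largest ratio in size at -0.19. Coenzyme Q takes the electrons of Sqor, and its synthesis genes had a median of -0.10 over 9 measured genes, with Coq8a lowest at -0.21 and 0 past 2-fold.

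Genes on either side of the pathway also stayed within 2-fold. Ado, the thiol dioxygenase that makes hypotaurine from cysteamine, had 611 in the control array and 1091 in the Na2S3 array (log2 ratio 0.63, spot error 0.08). It was the highest of the hypotaurine and taurine list, where 2 of 4 genes were measured. The other measured gene, Slc6a6, had -0.19 at its brightest probe and -0.57 and 0.07 at its others. In the methionine cycle, 8 of 10 genes were measured with a median of -0.02, and Mtr, the methionine synthase, stood highest at 0.43 (89.7 and 140 intensity units, spot error 0.19). Bhmt, the betaine-dependent methyltransferase, was lowest at -0.39. Of the genes for the molybdenum cofactor that Suox needs, Mocs2 had -0.01, and Mocs1 had 0.31 at its brightest probe and -0.15 at another. The dimmest Mocs1 probe had 0.43, but read only 22.07 and 34.39, with a spot error of 0.37. Among genes that use or carry sulfate and thiosulfate, Slc26a1 had -0.24, and Papss2 and Slc26a2 were well above background in the control array alone. Both were dim: Papss2 read 30.67 and 23.09, and the Slc26a2 probes 22.35 and 17.28, and 19.64 and 20.95. The lowest flagged signals were 18.3 and 20.5, so no fold is given for either gene.

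**Figure D4:**
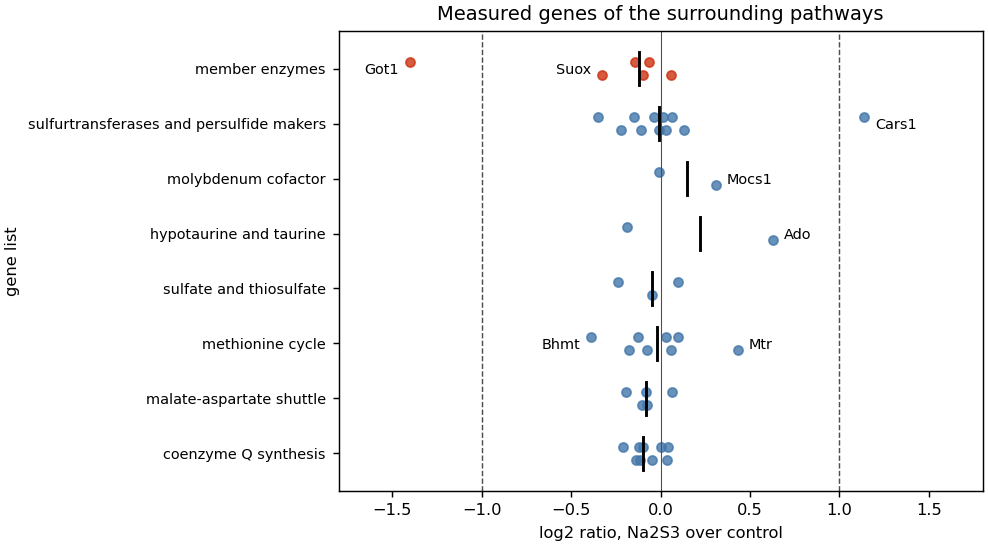
Log2 ratio (Na2S3 over control) of the 6 measured member enzymes (red) and of the measured genes of the 7 surrounding lists (blue), 1 point a gene with a vertical bar at each list's median; Got2 is in both of its lists. Dashed lines mark 2-fold, which Got1 (-1.40) and Cars1 (1.14) pass.

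The label of the cells was set against marker genes, with signals given unscaled. Markers of the epithelial and of the mesenchymal list were both well above background, so the markers alone do not settle the label. Of 12 intestinal epithelial markers 5 were measured. Krt8 read 15890 and 18280, Cdh1 14700 and 16260 and Cdx1 2086 and 2051. Krt18 (142.3 and 158.5) and Krt19 (214.9 and 251.4) were much dimmer. Vil1, Epcam, Cdx2, Krt20, Lgr5 and Fabp2 lacked the flag on at least 1 array. Of 8 fibroblast or mesenchymal markers 7 were measured, from Col3a1 at 91980 and 108700 down to Acta2 at 65.77 and 63.05. Of 5 immune or endothelial markers 4 were measured, with Vwf highest at 2485 and 2253 and Ptprc lowest at 29.24 and 27.08. Of 4 hepatocyte markers 0 were measured, liver being a tissue rich in Cth, Cbs, Cdo1 and Csad. Over all lists 0 markers passed 2-fold in either direction. Unscaled, the measured epithelial markers summed to 33040 and 37010 and the mesenchymal ones to 316100 and 330000. The immune or endothelial ones summed to 3442 and 3261. The sums are over different probes and are not compared between lists. After scaling, log2 ratios of epithelial markers ran from -0.23 (Cdx1) to 0.02 (Krt19). Those of mesenchymal markers ran from -0.43 (Col1a2) to 0.03 (Col3a1), and those of immune or endothelial ones from -0.35 (Vwf) to -0.11 (Tek). The part of these cell types in the enzyme values was not tested. In RNA from a whole dish, fewer cells of a type and less RNA per cell cannot be told apart.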

How the data were processed

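Total RNA was amplified, labelled with Cy3 and hybridised, 1 array per group, per the labels' protocols. The scanner files hold linear intensity values deposited by the authors, background-subtracted and detrended within each array by Agilent Feature Extraction 10.7.1.1, per the file headers; the submitters' processing notes name 9.5.1.1. The deposited value table also holds linear intensity values, and how it was normalized is not given here.

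Outlier spots by the software's flags were omitted (448 and 390 of the control and Na2S3 arrays), and 0 were saturated. Log2 signals were averaged per probe and each array's 75th percentile (413 and 478) was subtracted. A probe was well above background when more than 50% of its spots were flagged so. Each gene was read by the brightest of its probes that passed on both arrays. Of 45598 probes, 21109 were named through RefSeq accessions (GRCr8), 14743 by the file and 9746 not. Spot error is the pooled SD of repeated probes within 1 log2 unit of signal. No test was possible with 1 array a group, which limits the precision; calls mean at least 2-fold. Scripts were tested on simulated data. R 4.3.3, limma 3.58.1 and Python 3.11.15 were used. The text names all members, each listed gene past 2-fold and the gene of largest ratio in each list. Cars2, Nfs1, Got2, Bhmt, Mocs2, Papss2, Slc26a2, Tstd3, Slc6a6 and the markers quoted were added after their values were seen. The members, lists, thresholds and alternatives were chosen with earlier results of these data known.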

Additional observations from a re-analysis of the deposited data

How the results depend on the processing

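Under 10 alternatives (normexp, quantile normalization, loess, 2 other scalings, no filter and a stricter filter on dim probes, the median over probes, outlier spots kept, and the deposited table), the ratios of the 6 measured enzymes moved by less than their spot error. Only normexp, quantile normalization, loess and spike-in scaling bear on this, with 24 of 24 values within it: filters, the median over probes and outlier spots cannot move a gene read by 1 passing spot, median scaling differs hardly from the percentile, and the deposited table repeats quantile normalization. Got1 ran from -1.40 to -1.34 and the median of the members from -0.13 to -0.08. With no filter on dim probes, 10 enzymes had a value and 1 was at least 2-fold higher, Csad at 1.09; that setting counts spots at background by construction. Over all genes, 81 lower and 123 higher became 31 and 61 with normexp and 1545 and 1062 with no filter. Mtr fell to 0.23 with normexp, and Slc25a13 stood at -0.11 with quantile normalization and in the deposited table; the cause was not tested. No paired analysis was possible because each group has 1 array. Dim probes limit what can be said of Csad, Cth, Cbs and Cdo1: their signals were at most 1.29 times the lowest signal well above background.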
